A study of Mus musculus with 23 samples.

Results

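Cells given serum change both the RNA they make and the RNA they hold, and the difference between these responses was measured in primary mouse embryonic fibroblasts, connective tissue cells explanted from the embryo. The contrast was the serum response of newly transcribed RNA minus the serum response of unamplified total RNA, over all probe sets of the arrays. It used 16 of the 23 arrays of the series, chosen by their labels: newly transcribed RNA from starved and from treated cells and total RNA from starved and from treated cells, with 4 arrays in each group. All groups came from fibroblasts of e14.5 embryos with the background C57/BLACK6 and the genotype ATF1 -/+, so the controls carry the same heterozygous allele of the transcription factor Atf1 as the treated cells. Atf1 itself has no value here because its probe set is annotated to more than 1 gene. The cells were starved for 48 hours in 1% dialyzed fetal bovine serum and then held for 2 hours with 200 µM 4-thiouridine and tritiated cytidine, in 1% serum (starved) or 10% serum (treated). 4-Thiouridine is a uridine analogue that marks RNA made while it is present. Newly transcribed RNA is the thiol-bearing part of 100 µg of RNA, captured on an organomercurial matrix. The remaining 7 arrays hold amplified total RNA (3 starved, 4 treated), and their values are set beside some results.

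The size of an mRNA pool depends on synthesis and decay. When synthesis of an mRNA changes, the pool of a short-lived mRNA follows within its lifetime, while the pool of a long-lived mRNA moves slowly, so early responses of new and total RNA can differ. Immediate early genes such as Fos, Egr1 and Myc make short-lived mRNAs, whereas mRNAs for ribosomal, cytoskeletal and collagen proteins are long-lived. Decay can also change, and a pool can then move without a change of synthesis.

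Array signals were quantile normalized and are given as normalized intensity. A response is the treated minus the starved log2(intensity + 16), and the difference is the response in newly transcribed RNA minus that in total RNA, so a value above 0 means a larger rise or a smaller fall in newly transcribed RNA. These log2 values understate the change of dim probe sets. Median raw signals of the 16 arrays ran from 20 to 72.05. With values as deposited the median difference of all probe sets was -0.45, against 0.01 after normalization, and differences are relative to the bulk of the probe sets. Starved and treated arrays with the same replicate number in their titles form a pair, giving 4 pair responses per kind of RNA. The titles call the arrays biological replicates. The control probe sets for the 3′ end of GAPDH stood above those for the 5′ end by 2.24 ± 0.46 (log2, SD, n = 4) in starved and 2.08 ± 0.86 in treated newly transcribed RNA, against -0.18 ± 0.12 and -0.21 ± 0.11 in total RNA. Values for amplified total RNA, 1.54 ± 0.48 (n = 3) and 1.55 ± 0.75 (n = 4), lay between them. The label protocol speaks of linear amplification for every sample, and only the titles separate total from amplified total RNA. What the capture and what the preparation contribute to a difference cannot be told apart from total RNA alone. Of 14 fibroblast markers, 13 had signals above the 75th percentile of all probe sets, and their summed intensity ran from 9089 to 16631 in newly transcribed and from 25693 to 35006 in total RNA. Macrophage markers were also bright, 11 of 16 above that percentile, with sums from 3071 to 8371 in starved and 5041 to 10875 in treated newly transcribed RNA, and from 5996 to 14445 and 6011 to 14852 in total RNA. The part of other cells in the differences was not tested, and fewer cells of a type and less RNA per cell cannot be told apart.

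No probe set passed the test for a different serum response in the newly transcribed RNA and the pool. Limma, with the replicate number as a block within each kind of RNA and Benjamini-Hochberg adjustment over 12422 probe sets, called 0 (0% of probe sets tested), with a smallest adjusted p of 0.161. At an unadjusted p below 0.05 there were 1343 (10.8%), of which 622 lay above 0 (5.01%) and 721 below 0 (5.8%). In 767 probe sets (6.17%) the 4 pair responses of one kind did not overlap those of the other. Of the 622 above 0, the response was larger in size in newly transcribed RNA in 497 and in total RNA in 125. Of the 721 below 0 the counts were 605 and 116. Over all 12422 probe sets they were 7922 and 4500, so much of this imbalance is shared by the whole array. The share with an unadjusted p below 0.05 was 5.12% among the dimmest of 3 equal groups of probe sets, 10.6% in the middle group and 16.7% among the brightest. The 95% interval of the difference lay within 1 log2 unit of 0 for 83.8% of probe sets and within 0.5 for 20.1%. These units are of log2(intensity + 16). For a dim probe set an interval within 1 therefore does not exclude a 2-fold difference of intensity. The share within 1 was 92% in the dimmest group, 78.5% in the middle group and 80.8% in the brightest.

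**Figure D1:**
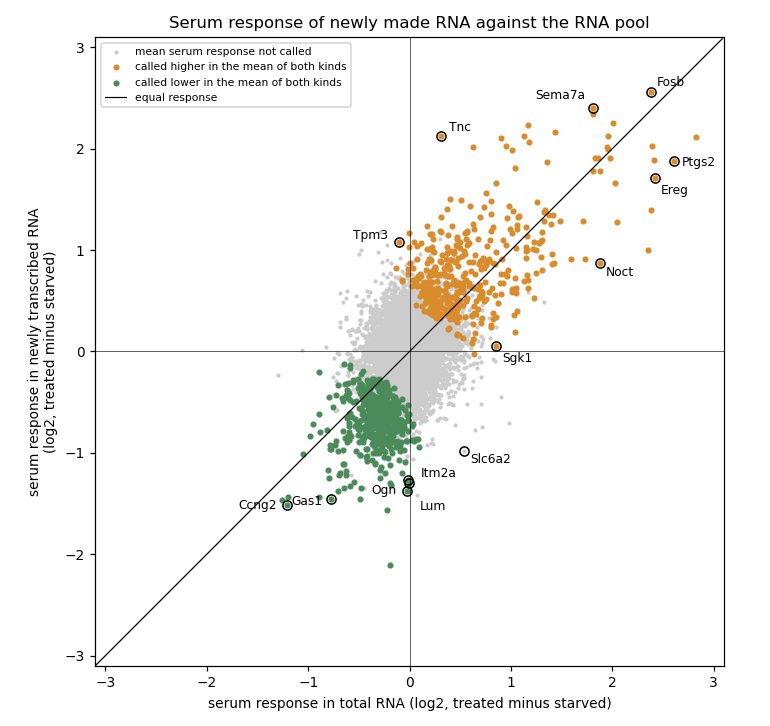
Each point is 1 probe set, with its serum response (log2, treated minus starved, mean of 4 pairs) in total RNA on the x axis and in newly transcribed RNA on the y axis. Orange and green mark the 418 and 503 probe sets whose mean response of both kinds was called higher or lower, and the line marks equal responses. Fosb lies near the line, Tnc and Tpm3 above it, Noct, Ereg and Sgk1 below it, and Ogn, Itm2a and Lum fell in newly transcribed RNA with no visible move in total RNA.

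Genes were also ranked by the mean of their responses in both kinds of RNA, a contrast orthogonal to that of the difference. A called mean does not show a response in each kind, since a large response in one can carry it, as for Ogn and Rpl10a below. Limma called 921 of the 12422 probe sets (7.41%), with 418 higher (3.36%) and 503 lower (4.05%) at an adjusted p below 0.05. Among those called higher the median response was 0.72 in newly transcribed and 0.47 in total RNA, the median difference was 0.19, and 293 of 418 (70.1%) had a difference above 0. Among those called lower the medians were -0.67 and -0.30, the median difference was -0.37, and 440 of 503 had a difference below 0. The responses of the 2 kinds had opposite signs in 9 of the 418 and 7 of the 503. All 12422 probe sets had a median difference of 0.01. The sets differed at the top: of the 100 probe sets with the smallest p for the mean response, 80 were higher, with median responses of 1.15 (newly transcribed) and 1.13 (total RNA) and with 40 differences above 0 and 40 below, while the 20 lower ones had medians of -1.10 and -0.62, with 17 differences below 0. With values as deposited the 418 no longer stood above the rest, with a median of -0.03 relative to all probe sets, and the 503 stood at -0.66. The spread of pair responses also differs by kind (median SD over probe sets 0.300 in newly transcribed and 0.255 in total RNA), so a choice by the mean response is not fully independent of the difference.

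In the same fit newly transcribed RNA had 426 probe sets called higher (3.43%) and 576 lower (4.64%), and total RNA had 84 higher (0.676%) and 12 lower (0.0966%). Both kinds called 81 probe sets in either direction. These counts do not test the difference, and the fit gives both kinds 1 estimate of the spread. As a test of the whole profile, the SD of the pair response over all probe sets was taken for each pair. It was 0.47, 0.46, 0.50 and 0.47 in newly transcribed RNA and 0.37, 0.46, 0.38 and 0.33 in total RNA. The second pair of total RNA overlaps the newly transcribed pairs, and the others lie below them. The means, 0.474 ± 0.019 and 0.384 ± 0.055 (SD, n = 4), differed by 0.090, with an exact two-sided permutation p of 0.0571 where 0.0286 is the smallest possible. The p depended on the processing: it was 0.0286 with arrays scaled to 1 median (difference 0.117), 0.171 with a pseudocount of 1 (0.0859) and 0.229 with values as deposited (0.108). Such an SD holds variation between arrays and preparations as well as the response. Pair responses also varied more in newly transcribed RNA (median SD 0.300 against 0.255), so a larger SD does not by itself show a larger serum response.

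Since no difference passed, the genes with the smallest unadjusted p were taken among probe sets with 1 gene symbol, a difference of at least 0.5 and pair responses that did not overlap, 10 of 173 above 0 and 10 of 215 below 0. None of the 20 passed the adjusted threshold. The adjusted p of the difference ran from 0.161 to 0.279 above 0 and from 0.161 to 0.216 below 0. The 10 above 0 were Tnc, Tpm3, Ppdpf, Thy1, Fhl1, Col6a2, Creb3l1, Rpl10a, Noc4l and Ung, and in each of them the response was a rise in newly transcribed RNA with a total RNA response that was not called.

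Tnc encodes tenascin-C, a matrix glycoprotein made by activated fibroblasts. Tnc signals in newly transcribed RNA were 157, 68, 130 and 290 in the 4 starved arrays and 823, 269, 811 and 1179.5 in the treated ones. In total RNA they were 216, 138, 105 and 150 and 289, 109.9, 159 and 240.1. All 4 newly transcribed pairs rose, and 1 of the total RNA pairs went the other way. The pair responses were 2.28, 1.76, 2.50 and 1.97 in newly transcribed and 0.39, -0.29, 0.53 and 0.63 in total RNA. The difference was 1.81 ± 0.24 (log2, SE of the fit, n = 4 pairs per kind, limma adjusted p = 0.161), from responses of 2.13 ± 0.17 (newly transcribed), 0.31 ± 0.17 (total) and, beside them, 0.40 ± 0.58 in amplified total RNA. A second, brighter Tnc probe set had responses of 0.76 and 0.30 and a difference of 0.46, so the size depends on the probe set. In Tpm3, a tropomyosin that coats actin filaments, the pair responses were 1.04, 1.37, 0.98 and 0.92 in newly transcribed and -0.45, -0.11, 0.31 and -0.18 in total RNA, a difference of 1.18 ± 0.19; a second, dim probe set had -0.43, the opposite direction.

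Thy1, a surface glycoprotein that marks fibroblasts, showed the same contrast at a high signal. Thy1 signals in newly transcribed RNA were 251, 836, 823 and 158 in the 4 starved arrays and 527, 1574, 2094 and 311 in the treated ones. In total RNA they were 2661, 725, 1286 and 954 and 2602, 838, 1615 and 828. The starved arrays of newly transcribed RNA differ by several fold among themselves, and the rise is seen within each pair. The newly transcribed response of 1.04 ± 0.12 stood against 0.07 ± 0.12 in the pool and 0.59 ± 0.83 after amplification of total RNA, and the difference was 0.97 ± 0.17. Fhl1, a LIM-domain protein of the cytoskeleton, had 1.15 ± 0.11 and 0.23 ± 0.11, with 0.62 ± 0.34 in amplified total RNA; its other probe sets had differences of 0.50 and 0.01. Col6a2, a chain of collagen VI, had 0.87 ± 0.12 and 0.01 ± 0.12. The partner chain Col6a1 gave a difference of 0.66 ± 0.14, and 0.68 by its second probe set. Rpl10a, a protein of the large ribosomal subunit, had signals of 178, 193, 239 and 162 in starved and 281, 452, 455 and 254 in treated newly transcribed RNA, against 3030.2, 3273, 2405 and 2550.4 and 2989.6, 2969, 2334 and 2786 in total RNA. All 4 newly transcribed pairs rose and the total RNA pairs stayed within -0.14 to 0.13. The difference was 0.83 ± 0.17, and 0.80 ± 0.18 by the second Rpl10a probe set.

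The others were Ppdpf (1.18 ± 0.19), Creb3l1 (0.84 ± 0.17), a membrane-bound transcription factor of the endoplasmic reticulum, Noc4l (0.78 ± 0.16), a nucleolar assembly factor of the small ribosomal subunit, and Ung (0.77 ± 0.16), a uracil-DNA glycosylase of base excision repair whose second probe set had -0.03. Amplified total RNA moved by 0.63 ± 0.71 for Ppdpf and 0.67 ± 0.30 for Noc4l, between the other kinds or level with newly transcribed RNA, and by 0.01 ± 0.61 for Creb3l1 and -0.00 ± 0.21 for Tpm3. With values as deposited the difference turned to -0.13 for Col6a2, -0.13 for Creb3l1, -0.09 for Rpl10a, -0.08 for Ung and -0.00 for Noc4l, all above the shift of -0.45 of the bulk of probe sets under that setting. The other 5 kept their direction there.

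**Figure D2:**
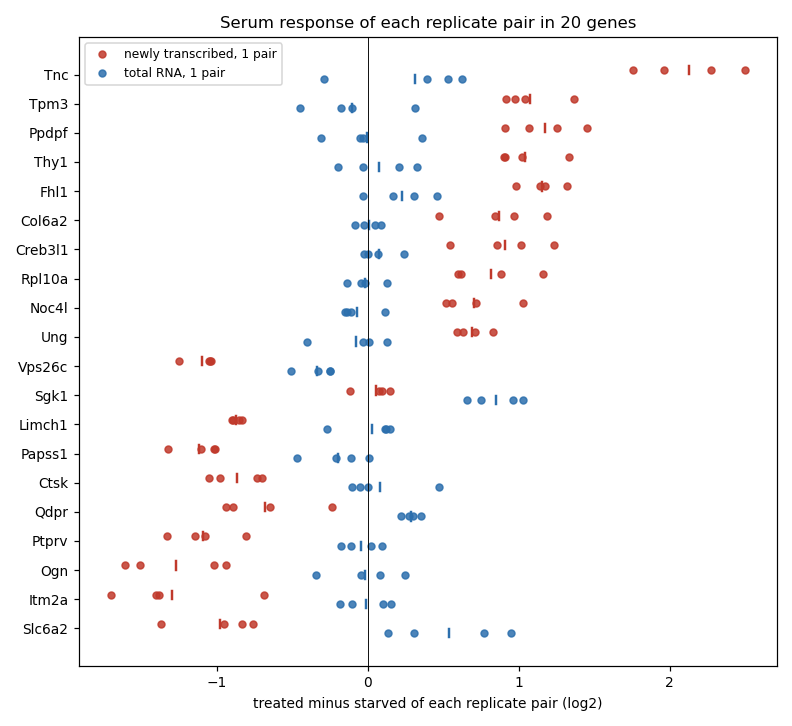
Each point is the serum response (log2, treated minus starved) of 1 replicate pair, with newly transcribed RNA in red and total RNA in blue, and the ticks are means of the 4 pairs. In these 20 genes the pairs of the 2 kinds do not overlap because that was how the genes were chosen. Of the 20, 19 moved more in newly transcribed RNA, as did 7922 of all 12422 probe sets, and Sgk1 moved more in total RNA.

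The 10 below 0 were Slc6a2, Itm2a, Ogn, Ptprv, Qdpr, Ctsk, Papss1, Limch1, Sgk1 and Vps26c. In 9 of them newly transcribed RNA fell. Ogn encodes osteoglycin, a small leucine-rich proteoglycan of the matrix. Ogn signals in newly transcribed RNA were 306, 213, 148 and 230.2 in the 4 starved arrays and 89.3, 64.3, 69.4 and 105 in the treated ones. In total RNA they were 1217, 2509, 4629 and 3155 and 1288, 2981, 3642 and 3053. Treated newly transcribed arrays all lay below the starved ones, while the total RNA groups overlap. The difference was -1.26 ± 0.21 (adjusted p = 0.161), from -1.27 ± 0.14 in newly transcribed and -0.02 ± 0.14 in unamplified total RNA, beside -0.38 ± 0.35 in amplified total RNA, and a second Ogn probe set had -0.66. Itm2a, a membrane protein of mesenchymal and immune cells, fell from 508, 148, 162 and 264 to 182, 46.8, 38.8 and 158 in newly transcribed RNA. In total RNA the Itm2a signals were 962, 1322, 1460 and 1340.3 in starved and 1034, 1472, 1281 and 1244 in treated arrays. That is a fall within every newly transcribed pair beside a pool without a shared direction, and the difference was -1.28 ± 0.22.

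Papss1, which makes the sulfate donor for proteoglycans, fell by every newly transcribed pair (-1.01, -1.02, -1.11 and -1.32), and its total RNA pairs were 0.01, -0.11, -0.21 and -0.47. The difference was -0.92 ± 0.16. Ctsk, the collagen-cleaving protease cathepsin K, had -0.95 ± 0.17. Ptprv, a receptor-type tyrosine phosphatase, had -1.05 ± 0.16 at a signal below the median of all probe sets, but its other 2 probe sets had 0.17 and 0.04. Limch1, a regulator of actomyosin contraction, had -0.90 ± 0.15 and -0.73 by its second probe set. Vps26c, a subunit of an endosomal sorting complex, had -0.76 ± 0.14 and -0.49. Qdpr, which recycles tetrahydrobiopterin, had -0.97 ± 0.18. Slc6a2, the noradrenaline transporter, had the largest value of the 10, -1.52 ± 0.22, at signals of at most 56.1, and its second probe set pointed the other way with 0.93. Among all probe sets, 1 without a gene name in the annotation table had -1.91, and Tnc and that probe set were the only ones called (adjusted p = 0.0272) when probe sets dimmer than the median were left out. They were also the only ones called with an intensity-dependent, robust prior (adjusted p = 0.0428).

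Sgk1 differed from the other 19. It encodes the serum- and glucocorticoid-regulated kinase, a serum-induced gene with a short-lived mRNA. Sgk1 signals in newly transcribed RNA were 4554, 1729, 1976 and 3418 in the 4 starved arrays and 5051, 1594, 2114 and 3605 in the treated ones. In total RNA they were 824, 672, 595 and 839 and 1399, 1328, 947 and 1729. Every total RNA pair rose, and the newly transcribed pairs were 0.15, -0.12, 0.10 and 0.08. The response was 0.85 ± 0.10 in total RNA (adjusted p = 0.00485) against 0.05 ± 0.10 in newly transcribed (adjusted p = 0.834) and 0.31 ± 0.51 in amplified total RNA. The difference was -0.80 ± 0.15 (adjusted p = 0.216).

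**Figure D3:**
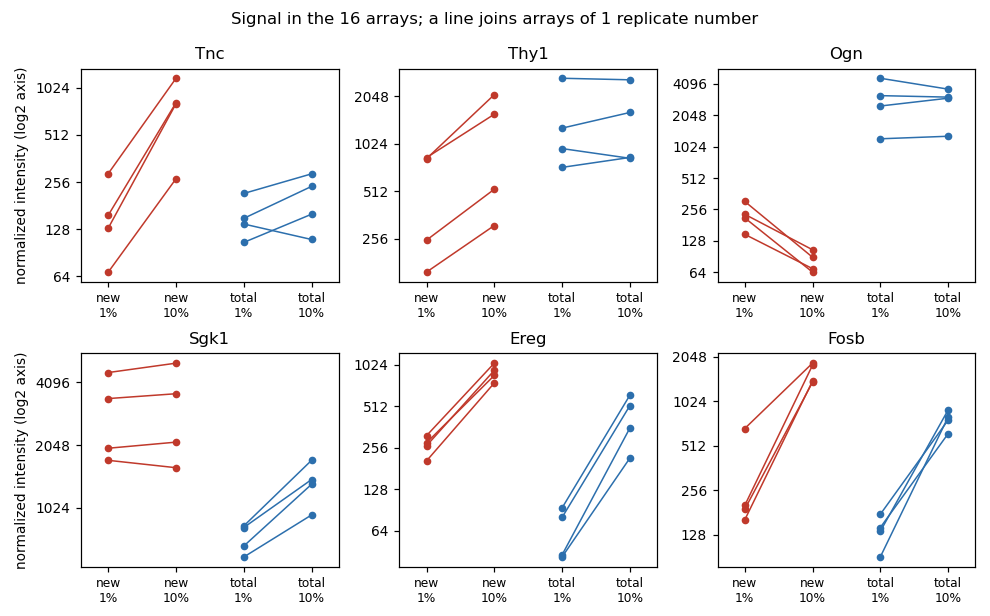
Normalized intensity on a log2 axis in the 16 arrays for 6 genes, with starved (1% serum) and treated (10% serum) arrays of newly transcribed RNA in red and of total RNA in blue, and lines joining arrays of the same replicate number; each panel has its own scale. Tnc and Thy1 lines rise and Ogn lines fall in newly transcribed RNA, Sgk1 lines rise in total RNA, and Ereg and Fosb lines rise in both.

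Among the genes with the largest called mean responses the differences went in both directions. The 10 genes with the largest mean rise were Errfi1, Fosb, Ptgs2, Nr4a1, Gjb2, Il11, Sema7a, Fgl2, Ereg and Vegfa, and 5 of them had a difference below 0. Fosb, a Fos-family subunit of AP-1, had signals of 191, 669.9, 203 and 162 in starved and 1375, 1852, 1793 and 1401 in treated newly transcribed RNA, and 90.9, 176, 136 and 144 and 799, 763, 893 and 617 in total RNA. Starved and treated arrays are apart in both kinds, and the second starved newly transcribed array was the highest of its group. Its responses were 2.56 ± 0.26 and 2.38 ± 0.26, with a 95% interval of the difference from -0.63 to 0.99. Ereg, the EGF-family ligand epiregulin, had signals of 313, 206, 265 and 278 and 1054, 756, 934 and 858 in newly transcribed against 42.6, 93.5, 41.2 and 79.8 and 355, 616, 215 and 517 in total RNA. All 8 pairs rose, and the 4 newly transcribed pairs (1.70, 1.80, 1.76 and 1.57) lie below the 4 of total RNA (2.66, 2.53, 2.01 and 2.48). The difference was -0.71 ± 0.17 (interval -1.09 to -0.33, adjusted p = 0.294).

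Ptgs2, the inducible cyclooxygenase, had a difference of -0.73 (interval -1.46 to 0.01) and Gjb2, a gap junction connexin, -0.52 (-1.07 to 0.02). The nuclear receptor Nr4a1 had -0.37 (-1.08 to 0.35). Above 0 were Sema7a, a membrane-anchored semaphorin, with 0.59 (-0.29 to 1.46), Fgl2, a fibrinogen-like secreted protein, with 0.53 (-0.31 to 1.36), the cytokine Il11 with 0.24 (-1.03 to 1.52) and the angiogenic growth factor Vegfa with 0.07 (-1.10 to 1.23). All 7 intervals reach beyond 1 log2 unit, those of Il11 and Vegfa on both sides and the others on one side. A second Sema7a probe set had responses of 0.92 and 0.91 and a difference of 0.01, and a second, dim Fgl2 probe set had -0.15. Errfi1, a feedback inhibitor of the EGF receptor, had -0.71 (-1.60 to 0.19) by the probe set that placed it here. Its brighter probe set had signals of 2612, 1690.4, 1979.7 and 2845 in starved and 6250.5, 3308, 3433 and 5769 in treated newly transcribed RNA, and 206, 448, 303 and 735 and 1908, 1989, 2197 and 1962 in total RNA. Both kinds rose in all 4 pairs, from a starved signal that was higher in newly transcribed RNA in every array. The difference there was -1.35 ± 0.33 (adjusted p = 0.294).

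The 10 genes with the largest mean fall were Ccng2, Snai2, Mab21l2, Rab9, Gas1, Ttc30b, Cyp1b1, Cavin2, Ect2 and Meox2, and 9 had a difference below 0. Gas1, a growth arrest gene, had -1.46 ± 0.21 in newly transcribed and -0.78 ± 0.21 in total RNA (interval of the difference -1.34 to -0.02). Meox2, a homeobox factor of the mesoderm with a signal below the median of all probe sets, had -1.45 ± 0.29 and -0.49 ± 0.29 (-1.87 to -0.06). Both intervals exclude 0, but neither difference passed the adjusted threshold (adjusted p = 0.445 and 0.438). With other processing choices the Meox2 difference ran from -1.93 to -0.46. The atypical cyclin Ccng2, a gene of quiescent cells, fell in both kinds, with pair responses of -1.30, -1.99, -1.74 and -1.05 in newly transcribed against -0.97, -1.27, -1.31 and -1.28 in total RNA and an interval from -0.79 to 0.17. Snai2, a repressor of epithelial genes, had -0.21 (-1.07 to 0.65), Cyp1b1, a cytochrome P450, -0.46 (-0.93 to 0.02), the small GTPase Rab9 -0.54 (-1.11 to 0.02) and the caveolar coat protein Cavin2 -0.70 (-1.55 to 0.15). Ect2, which acts in cytokinesis, had -0.36, Mab21l2 -0.24 and the ciliary protein Ttc30b 0.04.

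**Figure D4:**
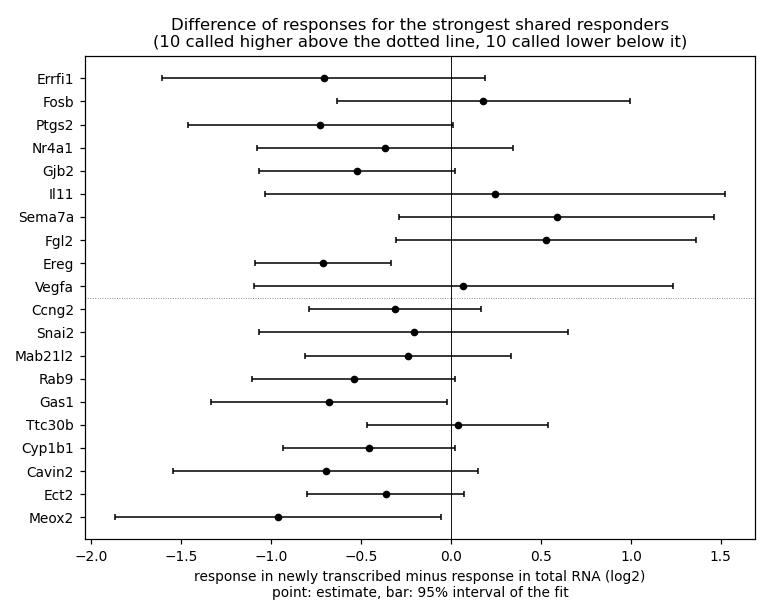
Difference of responses (log2, newly transcribed minus total RNA) with its 95% interval from the fit, for the 10 genes called higher with the largest mean rise (above the dotted line) and the 10 called lower with the largest mean fall. The intervals of Ereg, Gas1 and Meox2 lie below 0 without adjustment over probe sets; the other 17 include 0.

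Of the remaining early genes, Myc, a growth-promoting transcription factor, had 1.05 ± 0.11 in newly transcribed and 0.95 ± 0.11 in total RNA (interval of the difference -0.26 to 0.45). Egr1, a zinc finger factor, had 0.90 ± 0.41 and 0.88 ± 0.41 (-1.28 to 1.32), and Fos 1.28 ± 0.34 and 1.71 ± 0.34 (-1.49 to 0.63), both too variable to bound a 2-fold difference. The cytokine Il6, dimmer than the median probe set, had -0.01 (-0.56 to 0.55). Pnrc2, a nuclear receptor coactivator also linked to mRNA decapping, fell by 0.84 and 0.99 (-0.25 to 0.54). Tgfbi, a matrix protein inducible by TGF-beta, had 2.12 ± 0.24 and 1.13 ± 0.24 with a difference of 0.99 ± 0.34, and a second, dim probe set had -0.18. Has1, a hyaluronan synthase, had 0.73 ± 0.45.

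The gene lists used next were written with earlier results of these data known, and a gene is represented by its brightest probe set. For comparison, the 8251 genes measured had a median difference of -0.01, 48.6% lay above 0, and 5.15% and 7.05% had an unadjusted p below 0.05 above and below 0. Among the brightest of 3 equal groups of probe sets the share in either direction was 16.7%. Many listed genes are bright: 19 of the 25 immediate early factors had signals above the 75th percentile of all probe sets. No gene of any list was called for the difference. Of 25 immediate early transcription factors, the mean response was called higher in 15 and lower in 1, the median response was 0.81 in newly transcribed and 0.87 in total RNA, and the median difference was -0.13, with 7 genes above 0 and 18 below. This lean was small against the choice of arrays: the median was -0.02 (11 above and 14 below) without total replicate 2, -0.06 to -0.07 without total replicate 3 or newly transcribed replicate 1 or 3, -0.03 with a pseudocount of 64 and 0.03 against amplified total RNA. An unadjusted p below 0.05 was reached by 4 of the 25, near the share in that brightest group, and all 4 lay below 0. They were Egr2 (1.28 against 2.04), Klf6 (0.04 against 0.50), Jun (-0.00 against 0.53) and Bhlhe40 (0.48 against 0.87). Egr2, a zinc finger factor, had signals of 1224, 439.6, 510.5 and 1079 and 3287, 1096, 943 and 3215 in starved and treated newly transcribed RNA and 192, 122, 85.1 and 132 and 755, 580.4, 561 and 451 in total RNA. It rose in all 8 pairs, and the total RNA pairs rose more, a difference of -0.76 ± 0.22.

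Feedback regulators of signalling, which damp kinase and cytokine pathways, had medians of 0.75 (newly transcribed) and 1.00 (total RNA) over 22 genes and a median difference of -0.32, with 7 above 0 and 15 below. Against amplified total RNA the median was 0.00, so the lean was not seen with that preparation. From newly transcribed replicates 1 and 4 it was -0.18 (8 above and 14 below) and from replicates 2 and 3 -0.29 (10 and 12). The mean response of 13 was called higher and of 0 lower. An unadjusted p of the difference below 0.05 was reached by 2 genes above 0 and 2 below, so these counts do not lean. Dusp1, a phosphatase that inactivates MAP kinases, had 0.92 ± 0.22 against 1.74 ± 0.22 and its relative Dusp6, named here after its values were seen, 0.92 against 1.59. The direction was not shared by all members. Cish, a JAK-STAT inhibitor of the SOCS family, rose by 1.41 in newly transcribed RNA and had 0.37 in total RNA, and Rgs16, which shortens G protein signals, had 1.87 and 1.35, with a difference of 1.08 by its second probe set. Among 24 regulators of mRNA decay, Noct, the circadian gene nocturnin, first described as a deadenylase, had the smallest p; the list as a whole had a median difference of 0.08, which was 0.01 without total replicate 4. Noct signals in newly transcribed RNA were 1411, 1698, 1916 and 1823 in the 4 starved arrays and 3339, 2682, 2951 and 3585 in the treated ones. In total RNA they were 356, 565, 519.6 and 599 and 1866, 2010.3, 1725 and 1928. All 8 pairs rose, those of total RNA more, and the difference was -1.01 ± 0.21; its other probe sets had 0.11 and -0.16. The exonuclease Xrn2, dimmer than the median probe set, had 0.88 ± 0.24 and the deadenylase subunit Cnot8 -0.67 ± 0.20.

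Targets of serum response factor (SRF) and genes of the actin cytoskeleton, which build filaments and contractile bundles, leaned the other way. The median response of 29 genes was 0.47 in newly transcribed and 0.14 in total RNA, the median difference was 0.26, and 21 lay above 0 and 8 below; 8 reached an unadjusted p below 0.05 above 0 and 1 below. With values as deposited the median was 0.03 relative to all probe sets, so the lean depends on the scaling. It was 0.15 from newly transcribed replicates 1 and 4, 0.34 from replicates 2 and 3 and 0.27 against amplified total RNA. The mean response of 11 was called higher and of 0 lower. Besides Tpm3 these were led by Cfl1, the actin-severing protein cofilin, with 0.74 ± 0.10 against 0.08 ± 0.10, Myl9, a myosin light chain, with 0.88 ± 0.20 against -0.27 ± 0.20, Actg2, smooth muscle gamma actin, with 1.11 ± 0.16 against 0.23 ± 0.16 and Acta1, skeletal alpha actin, with 2.10 ± 0.32 against 0.91 ± 0.32. Actin probe sets share near-identical coding sequence, so their values may be mixed. Actb, cytoplasmic beta actin and an early serum gene, went against the list with -0.61 ± 0.20 in newly transcribed and 0.14 ± 0.20 in total RNA, while the integrin chain Itga5, named after its values were seen, had 1.91 and 1.83.

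Ribosomal protein mRNAs are abundant and stable. Of 28 measured genes, 25 had a difference above 0 and 3 below, with a median difference of 0.25. The median responses were 0.19 (newly transcribed) and -0.05 (total RNA). An unadjusted p below 0.05 was reached by 4 of the 28 (Rpl10a, Rpsa, Rpl37a and Rpl19). That is near the 16.7% among the brightest of 3 equal groups of probe sets. Of the 28, 20 had signals above the 75th percentile of all probe sets. Only 1, Rpl10a, was called for its mean response. Rpsa, a small-subunit protein that is also known as the laminin receptor, had 0.71 and -0.01. Rpl19 had a difference of 0.55, but its second, dimmer probe set had -0.45, the opposite direction. Multigene copies and pseudogenes make probe sets of this family uncertain. Relative to all probe sets the median was 0.16 with values as deposited. It was 0.09 from newly transcribed replicates 1 and 4 and 0.39 from replicates 2 and 3, and 0.14 against amplified total RNA.

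Most cell cycle genes were below 0. Of 27 genes of G1 and S phase, 6 lay above 0 and 21 below, with medians of -0.27 and -0.05 and a median difference of -0.22, which was -0.08 (11 above and 16 below) from newly transcribed replicates 1 and 4 and -0.34 from replicates 2 and 3. Both ribonucleotide reductase subunits, which make DNA precursors, were among them: Rrm2 with -0.57 ± 0.13 against 0.16 ± 0.13 and Rrm1 with -0.67 ± 0.12 against -0.01 ± 0.12. The replication helicase subunits Mcm2 and Mcm4 had differences of -0.57 ± 0.14 and -0.59 ± 0.21. Of 23 genes of G2 and mitosis, 4 lay above 0 and 19 below, with medians of -0.47 and -0.19 and a median difference of -0.25, or -0.15 without total replicate 3, and 9 were called lower in the mean response. Top2a, the DNA topoisomerase of dividing cells, had -0.69 ± 0.21, the mitotic kinase Aurka -0.57 ± 0.18 and Nek2, a centrosome kinase, -0.58 ± 0.18.

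Genes of growth arrest and quiescence, whose transcripts accumulate in starved fibroblasts, had medians of -0.38 and -0.15 over 30 genes, with 13 called lower in the mean response and 1 higher. The difference had a median of -0.10, with 9 above 0 and 21 below, but the median was 0.07 from newly transcribed replicates 1 and 4 and -0.29 from replicates 2 and 3, so its direction rested on which arrays were used. Leaving out newly transcribed replicate 1, 2 or 4 gave -0.31, -0.05 and -0.20. The largest values were those of Lum, Ogn and Gas2. Lum encodes lumican, a collagen-binding proteoglycan. Lum signals in newly transcribed RNA were 184, 234, 356 and 1403 in the 4 starved arrays and 105, 53.4, 83 and 674 in the treated ones. In total RNA they were 457, 1593, 2188 and 1951 and 503, 1416, 2160.1 and 1908. The Lum signal fell in every newly transcribed pair, and the total RNA pairs were 0.14, -0.17, -0.02 and -0.03. The difference was -1.36 ± 0.27 (adjusted p = 0.279). Gas2, a protein that links microfilaments and microtubules, had -1.14 ± 0.23, and a second probe set -0.55. Dcn, the proteoglycan decorin, had -0.65 ± 0.18. Txnip, Foxo3 and Tsc22d3, named after their values were seen, had differences above 0, with responses of -0.72, -0.41 and 0.53 in newly transcribed against -0.95, -0.59 and -0.02 in total RNA.

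**Figure D5:**
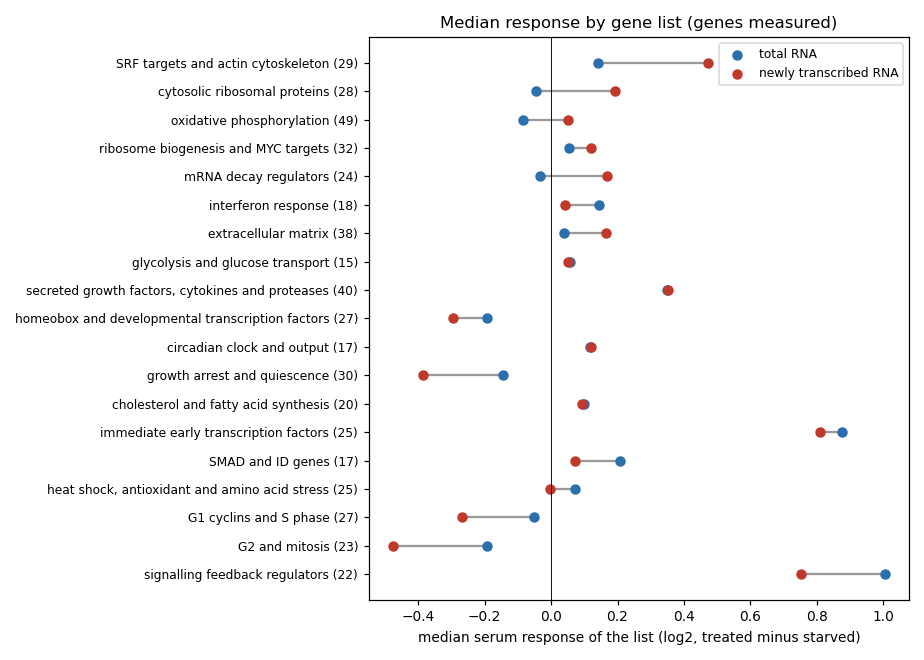
Median serum response (log2, treated minus starved) of the measured genes of 19 lists, with total RNA in blue and newly transcribed RNA in red and the number of genes in parentheses. SRF and ribosomal protein genes have the higher median in newly transcribed RNA and cell cycle and feedback genes the lower. The gap between 2 points is not the median of the differences per gene. The 2 have opposite signs for the interferon, extracellular matrix and circadian lists. By the median difference relative to all probe sets, the oxidative phosphorylation, ribosome biogenesis, mRNA decay and interferon lists change direction with values as deposited. The extracellular matrix and glycolysis lists do so with another scaling.

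Against amplified total RNA in place of unamplified total RNA, limma without a block again called 0 of 12422 differences (0%), with 201 (1.62%) at an unadjusted p below 0.05. Both comparisons share the newly transcribed arrays, so their values are given side by side only. The difference was 1.73 for Tnc (1.81 against total RNA), 0.45 for Thy1 (0.97), 1.08 for Tpm3 (1.18) and 0.03 for Noc4l (0.78). Below 0 it was -0.90 for Ogn (-1.26), -1.01 for Lum (-1.36), -0.26 for Sgk1 (-0.80), -0.54 for Ereg (-0.71) and 0.03 for Egr2 (-0.76). The SEs of the values against amplified total RNA were wide, 0.79 for Tnc, 0.29 for Tpm3, 0.41 for Noc4l, 0.69 for Sgk1 and 1.00 for Egr2, so these values set little apart. Amplified minus unamplified total RNA, a difference between preparations, called 0 as well, with 141 (1.14%) at an unadjusted p below 0.05. With the replicate number as a block within each kind these counts were 712 and 697, and 0 were called.

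Promoter sequences were searched on both strands in the 40 genes with the smallest p of the difference or the largest mean responses, of which 33 were in the RefSeq promoter table (GRCm38.p6, 250 bases before to 50 after each start). The motifs were the CArG box bound by SRF, the cyclic AMP response element TGACGTCA bound by ATF and CREB factors, the AP-1 site TGACTCA or TGAGTCA, and TATAAA. They occur in 1.63%, 1.79%, 5.2% and 13.6% of all 32851 promoters. These shares are per promoter, whereas a gene was counted if any of its promoters held the motif. Counts of genes and these shares are therefore unlike measures. A CArG box was found in Fhl1 and Rpl10a, 2 of the 8 matched genes above 0 and 0 of the 8 below, and TGACGTCA in Noc4l and Errfi1. The AP-1 site was found in Fgl2 and Il11, and TATAAA in Tnc, Fhl1, Ogn, Limch1, Sgk1, Errfi1, Meox2 and Mab21l2. The promoters of Fhl1, with a difference above 0 that did not pass, and of Errfi1, with one below 0 that did not pass, are shown with the CArG box (102 bases before the start) or TGACGTCA (51 bases before it) in capitals. A match is a description of the letters and not a measured site, and both genes have a second promoter in the table.
Fhl1, chrX:56779433-56779732, plus strand: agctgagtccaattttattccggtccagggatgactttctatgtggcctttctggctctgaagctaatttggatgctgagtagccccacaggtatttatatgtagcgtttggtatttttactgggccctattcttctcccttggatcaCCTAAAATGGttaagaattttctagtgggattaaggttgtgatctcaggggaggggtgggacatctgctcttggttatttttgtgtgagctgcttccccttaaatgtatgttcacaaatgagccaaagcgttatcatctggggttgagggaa
Errfi1, chr4:150854820-150855119, plus strand: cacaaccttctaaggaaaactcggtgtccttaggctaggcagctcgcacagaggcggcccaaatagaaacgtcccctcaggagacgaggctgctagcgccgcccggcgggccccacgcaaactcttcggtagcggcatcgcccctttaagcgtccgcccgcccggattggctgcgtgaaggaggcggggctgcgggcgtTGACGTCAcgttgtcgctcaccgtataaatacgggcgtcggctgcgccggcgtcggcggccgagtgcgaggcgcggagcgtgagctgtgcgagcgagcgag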

How the data were processed

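RNA of starved and serum-treated mouse embryonic fibroblasts was measured on Affymetrix arrays with biotin-labelled targets made by reverse transcription, linear amplification and a T7-based reaction, per the labels' protocols. The deposited values are 1 linear signal intensity per probe set and array; the software that summarised the probes, any scaling and the scan dates are not given in the sources used here. Of 12488 probe sets, 66 controls were left out. Of the other 12422, 10833 had 1 gene symbol in the platform annotation (8251 genes), 396 had more than 1, 1193 had no entry, and these last 2 classes were tested without a name. Symbols were set against RefSeq (GRCm38.p6) through Entrez identifiers, which changed 0.

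All 23 arrays were quantile normalized together and log2(value + 16) was taken. Groups came from the titles. Limma 3.58.1 in R 4.3.3 (lmFit, eBayes, two-sided) was fitted to 16 arrays with a term for each replicate number within each kind of RNA and a serum term for each kind. P-values were adjusted by Benjamini-Hochberg over 12422 probe sets and called below 0.05. Errors are SEs of the fit unless stated. The number of arrays limits the precision, and p-values reflect only the spread among the replicate arrays. No 2 arrays held identical values. The script was tested on simulated data.

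Whether replicate numbers pair the arrays was checked by correlating deviations from group means over all probe sets. Same-numbered starved and treated arrays gave 0.80, 0.80, 0.76 and 0.70 in newly transcribed and 0.70, 0.23, 0.47 and 0.57 in total RNA. The highest value of each starved array with a treated array of another number was 0.28, 0.71, 0.67 and 0.27 in newly transcribed RNA. In total RNA it was -0.27, 0.01, 0.02 and 0.22. The numbers were used as a block, though in newly transcribed replicates 2 and 3 they set the pairs apart only weakly. What a shared number means is not in the titles, so the pairing rests on these correlations. In amplified total RNA the values of same-numbered arrays were 0.69, 0.76 and -0.47, so that comparison had no block. Newly transcribed replicates 2 and 3 had pair responses that correlated at 0.69, against 0.24 to 0.38 for other newly transcribed pairs.

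The comparison, members and gene lists were chosen with earlier results of these data known. Genes were named by a rule. They were up to 10 per direction with the smallest unadjusted p of the difference among probe sets with 1 symbol, pair responses that do not overlap and a difference of at least 0.5, the 10 per direction with the largest called mean response, up to 4 of each list with the smallest p, and a fixed set of early, growth arrest and matrix genes. Alternatives varied the block, the pseudocount, the normalization, the probe sets and arrays included, the weights and the prior.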

Additional observations from a re-analysis of the deposited data

Results flagged for a closer look

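In groups of 4 pair responses, a sample was marked when its gap to the nearest of the others exceeded the critical share of the group's range in Dixon's test at 95%. Of 82 groups examined for the 40 genes with the smallest p of the difference or the largest mean response, and for the whole-profile spread, 6 were marked, where chance marks about 5%. Il11 rose by 0.40 (log2) in total RNA pair 1, against 2.53 to 2.57 in the other 3, so its response of 2.01 in total RNA is lowered by that pair. Newly transcribed pair 1 of Il11 was also low, 0.87 against 2.50 to 3.07, and over the alternatives the difference ran from -0.29 to 0.78. Ptgs2 rose by 2.67 in newly transcribed pair 2, against 1.59 to 1.67 in the others. Ccng2 in total RNA had -0.97 in pair 1 against -1.31 to -1.27, and Noc4l in total RNA had 0.11 in pair 1 against -0.15 to -0.11. Limch1 in total RNA had -0.27 in pair 3 against 0.12 to 0.14. Vps26c in newly transcribed RNA had -1.25 in pair 3 against -1.05 to -1.04. Of these 6, 3 lay in total RNA pair 1, and 6 of 82 is a number near that of chance.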

How the results depend on the processing

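The count of called differences stayed at 0 in 17 of 21 alternatives, with smallest adjusted p-values from 0.0514 to 0.674. It was 2 with only probe sets brighter than the median and 2 with an intensity trend and robust prior, where the probe sets were Tnc and the unnamed one. It was 146 with newly transcribed replicates 2 and 3 alone (61 above 0 and 85 below), which had the lowest smallest adjusted p of 0.00998. All 146 had the direction of the full fit, which is no separate support because that fit holds the same arrays. In the full fit 96 of the 146 had an unadjusted p below 0.05. The count was 0 with replicates 1 and 4. Without 1 pair it ran from 0 to 5, the 5 coming without newly transcribed replicate 4. The causes of these changes were not tested. Of the 20 genes with the smallest p of the difference, 15 kept their direction in every alternative, 5 turned with values as deposited, and 6 were called in at least 1 alternative. Of these 6, Col6a2, Creb3l1, Rpl10a and Qdpr were called only with newly transcribed replicates 2 and 3 alone. Col6a2, Creb3l1 and Rpl10a were also among the 5 that turned. Tnc and Itm2a were called in other alternatives as well.

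Called mean responses, 418 higher and 503 lower, were 49 and 21 with no replicate block, 236 and 192 with a replicate block by number across both kinds, 207 and 160 with pseudocount 1, 41 and 4 with values as deposited, and 191 and 113 with newly transcribed replicates 1 and 4. Without 1 pair they ran from 240 to 457 higher and from 208 to 625 lower. Counts moved by over 1.5 times without newly transcribed replicate 2 (263 and 245) or 3 (269 lower) and without total replicate 1 (268 lower), 3 (240 and 208) or 4 (267 and 257). Without the block the difference called 0, 299 probe sets reached an unadjusted p below 0.05, and the lowest adjusted p was 0.674. The spread of pair responses differed by 0.117 with arrays scaled to 1 median and by 0.072 to 0.116 without 1 pair, with exact p = 0.0286 in the first case, 0.171 with pseudocount 1, 0.229 with values as deposited and 0.0286 to 0.0857 without 1 pair. The 0.0286 without total replicate 2 carries no weight, since that pair alone overlapped the other kind. Differences against amplified total RNA and between preparations of total RNA called 0 in all 19 alternatives each. Dim probe sets limit what could be measured: a log2 difference is compressed where the signal is near the pseudocount of 16.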

Other observations

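Matrix genes split between the directions. Of 38 genes of the extracellular matrix, 19 had a difference above 0 and 19 below, 7 and 6 of them at an unadjusted p below 0.05, and the median was -0.01. Above 0 were both collagen VI chains described before and below 0 the proteoglycans Lum (-1.36), Ogn (-1.26) and Dcn (-0.65) and the matricellular protein Postn (-0.54 ± 0.15), which had -0.51 in newly transcribed and 0.04 in total RNA. The mean response of 7 was called higher and of 3 lower. Oxidative phosphorylation genes, 49 measured, had 34 above 0 and 15 below, a median of 0.12 and 1 called mean response. The median was 0.19 without newly transcribed replicate 4, 0.03 from newly transcribed replicates 1 and 4 and 0.22 from replicates 2 and 3, and relative to all probe sets -0.11 with values as deposited. Cox5b, a subunit of cytochrome c oxidase, had 0.70 ± 0.23 and Sdhc, a membrane subunit of succinate dehydrogenase, -0.60 ± 0.19. Ribosome biogenesis and MYC target genes had 20 above 0 and 12 below, with Rrp9, a nucleolar factor, at 0.67 ± 0.22 and the nucleolar chaperone Npm1 at -0.46 ± 0.20, and their median of 0.11 was 0.05 without newly transcribed replicate 4.

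Secreted growth factors, cytokines and proteases had a median response of 0.35 in both kinds of RNA over 40 genes, with 18 differences above 0 and 22 below and 15 called higher in the mean response. The chemokine Cxcl12 had -0.71 (newly transcribed) and -0.11 (total RNA), with differences of -0.20 and -0.53 by its other probe sets, and Ccn2, a matricellular growth factor, -0.14 and 0.47. Of 27 homeobox and developmental transcription factors, 8 were called lower and 3 higher in the mean response, and Nr2f1, an orphan nuclear receptor, had -1.34 in newly transcribed and -0.48 in total RNA. Of 20 genes of cholesterol and fatty acid synthesis, 8 lay above 0 and 12 below, but 10 and 10 without newly transcribed replicate 1. The desaturase Scd2 had -0.84 ± 0.26 and, by a second bright probe set, -0.15. Of 25 genes of heat shock and other stress, the haem oxygenase Hmox1 had 1.11 and 0.56 and the heat shock gene Hspa1b 0.70 and 1.13. Of 17 circadian genes Clock had -0.53 ± 0.18, of 17 SMAD and ID genes 4 lay above 0 and 13 below, of 18 interferon genes 10 and 8, and of 15 glycolysis genes 6 and 9. The last 2 tallies turn without single pairs, to 8 and 10 without total replicate 1 and to 10 and 5 without newly transcribed replicate 2, and the SMAD and ID median of -0.16 was 0.08 against amplified total RNA. None of these differences passed the adjusted threshold.

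Markers of other cells were mostly dim. Of 10 endothelial, 11 epithelial, 13 skeletal muscle, 12 neural and 6 erythroid markers, 8, 10, 11, 8 and 6 had signals below the median of all probe sets. The muscle markers include Acta1, and their summed intensity ran from 204 to 338 in starved and 381 to 1133 in treated newly transcribed RNA and from 282 to 347 and 315 to 597 in total RNA. Endothelial sums ran from 333 to 534 and 499 to 748 in newly transcribed and from 404 to 664 and 459 to 626 in total RNA. Epithelial sums ran from 97.6 to 157 and 151 to 190.3 in newly transcribed and from 157 to 231 and 141 to 175 in total RNA. Their part in the differences was not tested.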
